A study of Mus musculus with 41 samples.

Results

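The genes described here encode the subunits of the proteasome and the proteins that activate, inhibit and assemble it. They were taken from the mouse read-count table as the symbols that begin with Psma, Psmb, Psmc, Psmd, Psme, Psmf or Psmg followed by a number, without pseudogenes and without the 3 immunoproteasome genes Psmb8, Psmb9 and Psmb10. This gave 47 of 24537 listed symbols, and the rule used no measured value. The name rule also takes in Psmc3ip, a cofactor of meiotic recombination that is no proteasome subunit. Of the 47 genes 46 passed the filter on low counts and were tested. Psmb11, a catalytic subunit made in the thymus, was left untested with at most 5 reads in any library.

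The libraries came from mice of the C57Bl6 strain. Microglia (macrophages that reside in the brain) were sorted as live CD11b+ CD45Low cells and either lysed at once (ex vivo, 5 RNA libraries) or kept in culture for 6 h (2 libraries), 24 h (3 libraries) or 7 d (5 libraries). Every culture received IL-34, a ligand of the receptor that microglia need to survive, each day in medium with 5% serum. A further 2 libraries were cultured for 7 d with IL-34 and TGFb, and 4 came from whole brain lysate. The label of 24 h replicate 2 gives 22 h. Whether the libraries of a group were prepared from different mice is not in the labels, and all p-values therefore rest on a spread between libraries that may be technical. Peak lists of open chromatin (ATAC) and of acetylated histone H3 lysine 27 (H3K27ac) were called on pooled ex vivo and pooled 7 d samples, and lists of H3K4me2 and of the transcription factor PU.1 on pooled ex vivo samples.

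The proteasome is the main protease of the cytosol and nucleus and degrades proteins marked with ubiquitin. Its 20S core is a barrel of outer alpha rings, which gate the entrance, and inner beta rings, whose Psmb5, Psmb6 and Psmb7 subunits cut peptide bonds. The 19S cap binds ubiquitin, removes it and feeds the unfolded substrate into the core by means of a ring of ATPases. Other caps (PA28 and PA200) open the core without recognising ubiquitin, PI31 (Psmf1) binds and inhibits it, and dedicated chaperones assemble core and cap. In many cell types the subunit genes rise together when proteasome activity falls short, through the transcription factor NRF1, which Nfe2l1 encodes. In cells of the immune system interferons raise PA28 and the immunoproteasome subunits.

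Library totals ran from 11584561 to 28841472 counts. Reads of the 47 genes made up 0.132% to 0.177% of the counts ex vivo, 0.353% to 0.357% at 6 h, 0.278% to 0.385% at 7 d and 0.202% to 0.258% in brain lysate. The 8 microglial markers summed to 25850 to 33260 TPM (transcript levels scaled to transcript length and library size) ex vivo, 2293 to 2466 at 6 h, 4761 to 6722 at 7 d and 8586 to 9452 with TGFb, all 8 being detected in each group. The 7 neuronal markers summed to 1.47 to 12.8 TPM ex vivo and to at most 1.14 TPM in the cultures. In the counts Snap25, Syt1 and Gad1 were at 0 in both libraries of 6 h, and Rbfox3, Map2, Tubb3 and Slc17a7 had a few reads there. The 5 neutrophil markers summed to 534 and 528 TPM in ex vivo replicates 2 and 3 and to 9.24 to 114 TPM in the other ex vivo libraries. Ex vivo replicate 3 was the highest ex vivo library for 28 of the 46 genes tested. Among the 7 d cultures replicates 2 and 3 stood apart, both lying above the other 3 libraries for 36 of the 46 genes.

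After 6 h in culture 36 of the 46 genes had risen against ex vivo microglia and 4 had fallen (edgeR adjusted p under 0.05). Of all 13840 genes tested, 31.2% were called higher and 36.8% lower in this comparison (68% in either direction). The median log2 fold change was 1.48 over the proteasome genes and -0.17 over all genes tested. Of the proteasome genes 34 were both called and changed by 2-fold or more, where 50.3% of all genes were. The genes that rose encode nearly every piece of the core and the cap, and those that did not rise were the chaperones of core assembly, the inhibitor, the testis alpha subunit Psma8, Psme2 and its copy of the PA28 cap, the base chaperone Psmd9 and Psmc3ip. Values per library are given as CPM, the counts scaled to a common library size by TMM, and are listed in replicate order, and ± after a log2 fold change is its standard error.

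**Figure D1:**
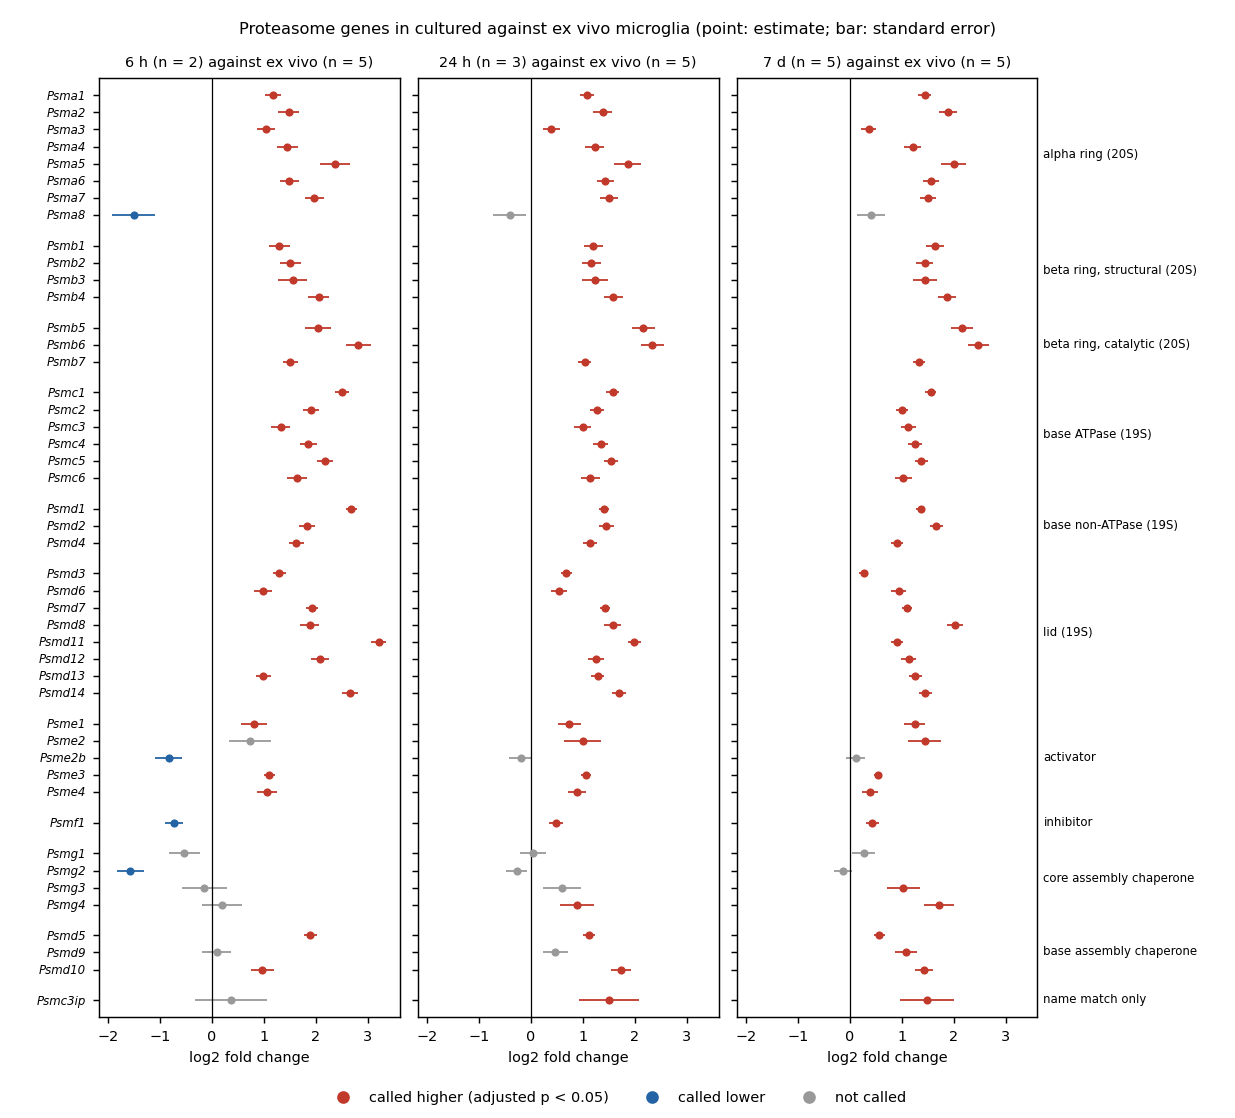
Log2 fold change of 46 proteasome genes at 6 h (n = 2), 24 h (n = 3) and 7 d (n = 5) of culture against ex vivo microglia (n = 5), grouped by role; points are estimates and bars are standard errors, and the legend gives the calls. At 6 h Psmd11 lies farthest to the right (3.21) and Psmg2 farthest to the left (-1.57), and at 24 h and 7 d no gene was called lower.

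The catalytic beta subunits rose most as a role, with a median log2 fold change of 2.04. Psmb6, the caspase-like subunit (chr11:70525324-70527858 in RefSeq's GRCm38.p6), stood at 25.0, 16.1, 31.8, 18.4 and 19.8 CPM ex vivo and at 149 and 166 CPM at 6 h (log2 fold change 2.82 ± 0.24, edgeR adjusted p = 1.86e-08). Psmb5, the chymotrypsin-like subunit, stood at 8.91, 5.63, 13.4, 6.23 and 6.06 CPM ex vivo and at 30.0 and 36.5 CPM at 6 h (log2 fold change 2.04 ± 0.25, edgeR adjusted p = 1.67e-06). Psmb7, the trypsin-like subunit, went from 23.9, 21.9, 25.6, 22.0 and 20.6 CPM to 68.5 and 61.0 CPM (log2 fold change 1.50 ± 0.14, edgeR adjusted p = 7.51e-08). For all 3 both cultured libraries lay above every ex vivo library. Ex vivo replicate 3 was the highest of the ex vivo libraries for each of them. RefSeq lists 6 pseudogenes named after Psma5, Psmb5, Psmb6 and Psmb7. Reads of these genes could be shared with them, so the absolute levels of these genes are uncertain.

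The promoters of Psmb5 and Psmb6 hold, just before the start that the promoter table uses, the letters TGACNNNGC, the core of the element that NRF1 and NRF2 bind with small Maf proteins. They are shown because these 2 genes rose most among the catalytic subunits. The stretches are RefSeq sequence of GRCm38.p6, written 5′ to 3′ on the strand of the gene and lying before that start, with the motif in capitals.
Psmb5, chr14:54618009-54618067, minus strand: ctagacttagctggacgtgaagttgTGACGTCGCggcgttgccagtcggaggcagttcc
Psmb6, chr11:70525323-70525356, plus strand: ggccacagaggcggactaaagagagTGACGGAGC
The motif begins 47 bases before this start for Psmb5 and 9 bases before it for Psmb6. RefSeq's gene span of Psmb6 begins earlier, at base 70525324 of chromosome 11, so its motif lies inside that span.

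Of the 8 alpha genes 7 rose and 1 fell, and all 4 structural beta genes rose. Psma5 went from 5.52, 2.69, 4.11, 2.94 and 2.11 CPM ex vivo to 18.1 and 17.9 CPM at 6 h (log2 fold change 2.36 ± 0.29, edgeR adjusted p = 1.46e-06). Psma7 went from 26.3, 22.6, 31.0, 15.0 and 23.6 CPM to 92.1 and 94.1 CPM (log2 fold change 1.97 ± 0.19, edgeR adjusted p = 7.36e-08). The other alpha genes that rose had log2 fold changes from 1.04 (Psma3) to 1.49 (Psma6), and the structural beta genes from 1.29 (Psmb1) to 2.05 (Psmb4). Psma8, the alpha subunit of testis, was the exception. It had 2.60, 2.69, 2.94, 1.43 and 1.33 CPM ex vivo and 0.746 and 0.804 CPM at 6 h (log2 fold change -1.51 ± 0.41, edgeR adjusted p = 0.00368), and the groups did not overlap. At this level its reads are few.

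All 6 ATPases, all 3 other base subunits and all 8 lid subunits rose at 6 h. Psmd11, a lid subunit, changed most of the 46 genes, from 25.9, 30.1, 24.7, 29.1 and 24.1 CPM ex vivo to 259 and 234 CPM (log2 fold change 3.21 ± 0.14, edgeR adjusted p = 8.76e-12), a 9.22-fold rise. Psmd14, the deubiquitinase of the lid that cuts ubiquitin from the substrate, went from 23.5, 21.0, 26.2, 20.2 and 16.9 CPM to 149 and 123 CPM (log2 fold change 2.66 ± 0.15, edgeR adjusted p = 1.32e-10). Psmd1, the scaffold to which ubiquitin receptors attach, went from 73.7, 72.4, 73.5, 70.1 and 67.0 CPM to 493 and 422 CPM (log2 fold change 2.68 ± 0.10, edgeR adjusted p = 1.31e-12). In none of these genes did the ex vivo and 6 h libraries overlap, and the ex vivo libraries of Psmd1 lay closer together than those of the catalytic subunits. Psmc1, one of the ATPases that unfold the substrate, rose by 2.50 ± 0.13 (edgeR adjusted p = 6.94e-11) on the log2 scale and the other ATPases by 1.32 (Psmc3) to 2.17 (Psmc5). The lid genes that moved least were Psmd6 at 0.98 and Psmd13 at 0.99.

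The 60 bases before the annotated start of Psmd11 are given to set beside those of the catalytic subunits, since it rose more than either.
Psmd11, chr11:80428555-80428614, plus strand: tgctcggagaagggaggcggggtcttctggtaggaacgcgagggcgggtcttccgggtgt
The whole searched window of Psmd11, 250 bases before to 50 after the start, held neither TGACNNNGC nor CCAAT on either strand, which says only that these letters are not there.

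The activators went different ways. Psme3 (PA28 gamma, a nuclear cap) went from 78.7, 79.2, 69.4, 70.2 and 76.8 CPM ex vivo to 162 and 160.0 CPM at 6 h (log2 fold change 1.10 ± 0.10, edgeR adjusted p = 4.26e-08), and Psme4 (PA200) from 116, 147, 90.4, 121 and 108 CPM to 241 and 245 CPM (log2 fold change 1.06 ± 0.20, edgeR adjusted p = 0.000139). Psme1 (PA28 alpha) went from 39.1, 33.0, 50.9, 24.6 and 33.1 CPM to 62.6 and 64.0 CPM (log2 fold change 0.81 ± 0.25, edgeR adjusted p = 0.00886). This call ended under upper-quartile scaling and in limma on the TPM values. Psme2 (PA28 beta) had 4.69, 4.31, 7.02, 2.79 and 4.39 CPM and 8.75 and 6.78 CPM (log2 fold change 0.73 ± 0.41, edgeR adjusted p = 0.119). Its groups overlapped, whereas those of Psme1, Psme3 and Psme4 did not. Psme2b, a near-copy of Psme2 on another chromosome, fell from 43.1, 52.8, 48.1, 63.8 and 51.1 CPM to 31.0 and 26.9 CPM (log2 fold change -0.84 ± 0.26, edgeR adjusted p = 0.00841), and without 6 h replicate 2 it was not called. Reads could be split between Psme2 and Psme2b in either direction, so both values are uncertain.

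The 60 bases before the annotated starts of Psme2 and its copy are given side by side, because the peak lists differ between these starts.
Psme2, chr14:55591102-55591161, minus strand: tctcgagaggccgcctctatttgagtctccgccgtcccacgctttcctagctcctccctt
Psme2b, chr11:48946411-48946470, minus strand: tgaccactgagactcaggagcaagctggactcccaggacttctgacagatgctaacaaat
At the start of Psme2 all 6 peak lists had a peak within 1000 bp, and at that of Psme2b none did.

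The inhibitor Psmf1 fell from 29.3, 26.2, 27.1, 24.5 and 24.7 CPM ex vivo to 14.6 and 17.1 CPM at 6 h (log2 fold change -0.74 ± 0.17, edgeR adjusted p = 0.00104). Of the 4 chaperones that assemble the core, Psmg2 fell from 12.8, 12.8, 14.0, 9.67 and 11.6 CPM to 4.28 and 3.91 CPM (log2 fold change -1.57 ± 0.26, edgeR adjusted p = 4.89e-05). Its partner Psmg1 had 5.48, 7.13, 5.73, 6.66 and 6.39 CPM ex vivo and 4.28 and 4.37 CPM at 6 h (log2 fold change -0.54 ± 0.30, edgeR adjusted p = 0.12). The groups of Psmg1 did not overlap although it was not called. Under upper-quartile scaling and in limma on the TPM values Psmg1 was called lower. Psmg3 (-0.15 on the log2 scale) and Psmg4 (0.19) were not called either (edgeR adjusted p = 0.779 and 0.681). The chaperones of the base divided, Psmd5 rising by 1.89 ± 0.12 (edgeR adjusted p = 9.04e-10) and Psmd10 by 0.97 ± 0.22 (edgeR adjusted p = 0.000961), while Psmd9 had 0.09 (edgeR adjusted p = 0.78). Psmc3ip had 0.36 (edgeR adjusted p = 0.662).

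Upper-quartile scaling moved the median of all genes at 6 h from -0.17 to -0.39 and that of the proteasome genes from 1.48 to 1.25. In the TPM values, tested with limma, the medians were -0.36 and 1.10, and 35% of all calls were higher, against 4312 of 9411 in the counts. The cultured libraries also differed from the ex vivo ones in the sum of microglial markers given above, whose part in these results was not tested. In bulk samples fewer cells of a type and less RNA per cell cannot be told apart.

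**Figure D2:**
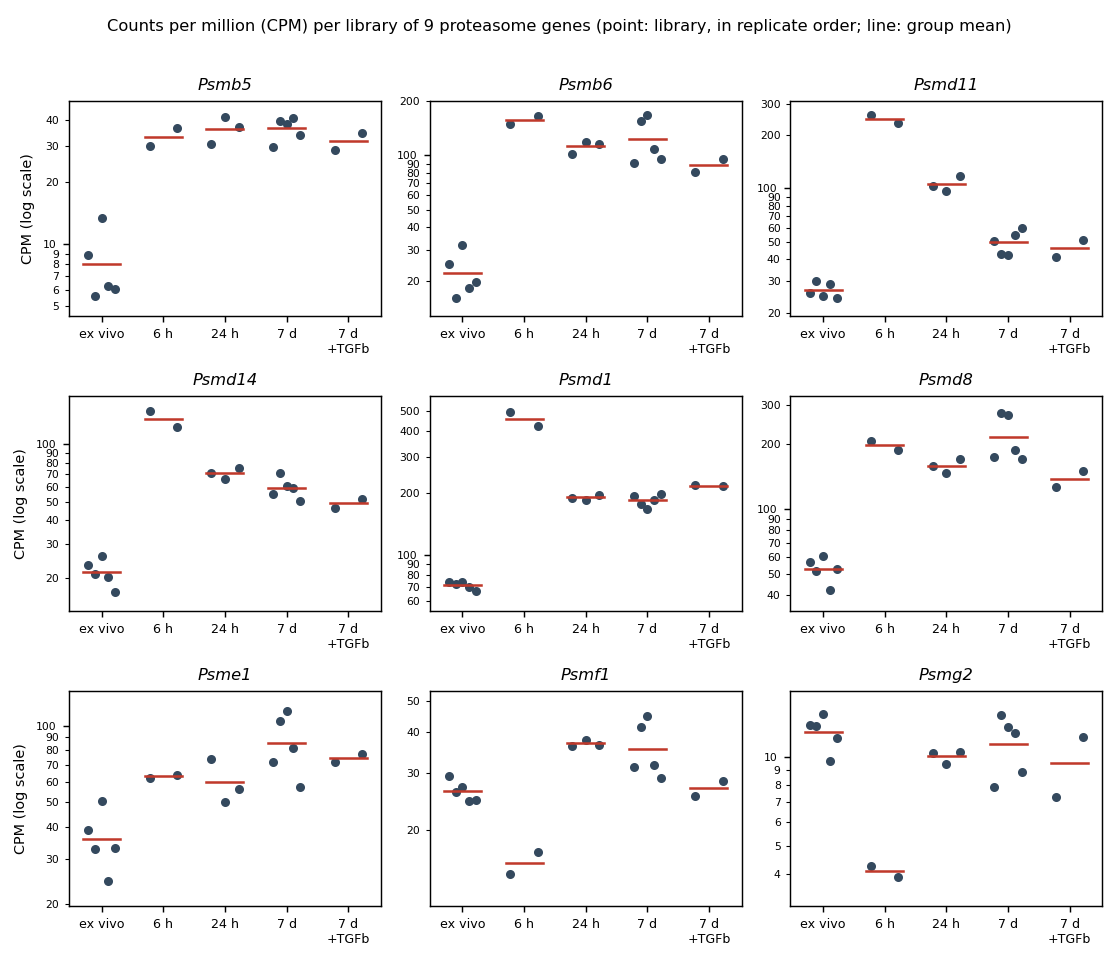
CPM on a log axis for 9 proteasome genes in each ex vivo and cultured library; points are libraries in replicate order within a group and lines are group means. Psmd11, Psmd14 and Psmd1 are highest in the 2 libraries of 6 h, Psmb5 and Psmb6 stay high to 7 d, and Psmf1 and Psmg2 are lowest at 6 h.

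At 24 h 40 of the 46 genes were higher than ex vivo and none was lower, where 29.6% and 33.1% of all genes tested were (62.8% either way). At 7 d 42 were higher and none lower, where 34.8% and 35.7% of all genes were (70.5% either way). The medians of the proteasome genes were 1.21 at 24 h and 1.26 at 7 d, and those of all genes -0.06 and -0.02. These comparisons share the 5 ex vivo libraries with that at 6 h. No proteasome gene was lower at an unadjusted edgeR p under 0.05 either, at 24 h or at 7 d, and none was lower in DESeq2 or in limma on the TPM values. The catalytic subunits again had the largest median of the roles, 2.16 at 24 h and 2.17 at 7 d, ahead of the alpha ring at 1.30 and 1.47 and the lid at 1.36 and 1.12.

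Psmb6 had 102, 119 and 116 CPM at 24 h (log2 fold change 2.33 ± 0.22, edgeR adjusted p = 8.27e-08) and 90.7, 155, 167, 109 and 96.0 CPM at 7 d (log2 fold change 2.47 ± 0.20, edgeR adjusted p = 1.38e-08), against 25.0, 16.1, 31.8, 18.4 and 19.8 CPM ex vivo. Psmb5 had 30.6, 41.3 and 37.1 CPM at 24 h (log2 fold change 2.16 ± 0.23, edgeR adjusted p = 3.41e-07) and 29.6, 39.7, 38.3, 40.8 and 33.7 CPM at 7 d (log2 fold change 2.17 ± 0.21, edgeR adjusted p = 1.07e-07). Psmb7 rose by 1.04 ± 0.13 (edgeR adjusted p = 2.34e-06) at 24 h and 1.33 ± 0.12 (edgeR adjusted p = 2.72e-08) at 7 d on the log2 scale. No cultured library of these 3 genes fell within the ex vivo range. The 7 d values of Psmb6 spread most, replicates 2 and 3 being the highest.

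In the alpha and structural beta rings Psma2 and Psmb4 were among the 5 largest rises at 7 d of genes with at least 20 CPM. Psma2 went from 18.1, 16.2, 22.5, 16.1 and 11.8 CPM ex vivo to 51.5, 81.0, 75.6, 58.7 and 48.1 CPM (log2 fold change 1.89 ± 0.17, edgeR adjusted p = 4.22e-08), and Psmb4 from 43.7, 29.4, 46.8, 21.4 and 34.8 CPM to 109, 148, 144, 129 and 114 CPM (log2 fold change 1.86 ± 0.17, edgeR adjusted p = 5.35e-08). Neither overlapped with the ex vivo libraries. Psma3 was called at 24 h (log2 fold change 0.39 ± 0.16, edgeR adjusted p = 0.044) and at 7 d (log2 fold change 0.37 ± 0.14, edgeR adjusted p = 0.029), but its groups overlapped both times. At both times its call was lost under DESeq2 size factors, under upper-quartile scaling and in the TPM values, and at 24 h also with only these 2 groups in the fit. Psma8 was not called at either time (edgeR adjusted p = 0.28 at 24 h and 0.18 at 7 d).

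In the cap Psmd8, a lid subunit, rose at 7 d from 57.2, 52.0, 60.9, 42.5 and 52.9 CPM to 173, 276, 269.5, 186 and 170.2 CPM (log2 fold change 2.02 ± 0.15, edgeR adjusted p = 5.14e-09). Psmd14 had 70.3, 65.8 and 74.8 CPM at 24 h (log2 fold change 1.70 ± 0.14, edgeR adjusted p = 1.13e-08) and 55.1, 70.4, 60.7, 58.6 and 50.7 CPM at 7 d (log2 fold change 1.45 ± 0.12, edgeR adjusted p = 1.93e-08). Psmd11 had 104, 97.2 and 118 CPM at 24 h (log2 fold change 1.99 ± 0.13, edgeR adjusted p = 9.84e-10) and 50.6, 42.9, 42.4, 54.7 and 59.7 CPM at 7 d (log2 fold change 0.90 ± 0.12, edgeR adjusted p = 2.95e-06). All 3 kept clear of the ex vivo range at both times. Psmd3 was the lid gene nearest to its ex vivo level at 7 d (log2 fold change 0.27 ± 0.09, edgeR adjusted p = 0.018), with overlapping groups, and its call ended under DESeq2 size factors. The base chaperone Psmd10 rose by 1.74 ± 0.20 (edgeR adjusted p = 7.36e-07) at 24 h and was among the 5 largest rises there by the same measure, and Psmd9 rose by 1.08 ± 0.21 (edgeR adjusted p = 0.000239) at 7 d after 0.47 at 24 h (edgeR adjusted p = 0.0958).

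Psme1 had 74.0, 50.4 and 56.5 CPM at 24 h (log2 fold change 0.74 ± 0.22, edgeR adjusted p = 0.00824) and 71.8, 104, 114, 81.6 and 57.4 CPM at 7 d (log2 fold change 1.25 ± 0.20, edgeR adjusted p = 3.03e-05), against 39.1, 33.0, 50.9, 24.6 and 33.1 CPM ex vivo. Psme2 had 12.4, 7.38 and 8.29 CPM at 24 h (log2 fold change 1.00 ± 0.36, edgeR adjusted p = 0.0221) and 7.36, 19.4, 19.6, 10.7 and 6.23 CPM at 7 d (log2 fold change 1.44 ± 0.32, edgeR adjusted p = 0.000738), against 4.69, 4.31, 7.02, 2.79 and 4.39 CPM ex vivo. For both genes 24 h replicate 1 was the highest of its group, and without it neither was called at 24 h. The 6 interferon-response markers summed to 552, 105 and 155 TPM in the same 3 libraries and to 66.8 to 81.2 TPM ex vivo. At 6 h all 6 were higher in replicate 1 (Ifit1 at 30.9 and 3.79 CPM), where Psme1 had 62.6 and 64.0 CPM and Psme2 8.75 and 6.78 CPM. At 7 d all 6 were lowest in replicate 5, as Psme1 and Psme2 were. Ifit1 had 42.4, 46.4, 53.05, 58.7 and 8.83 CPM there, while Psme1 and Psme2 were highest in replicates 2 and 3. The part of these markers in the rise of PA28 was not tested. Psme4 rose by 0.88 ± 0.17 (edgeR adjusted p = 0.000321) at 24 h and 0.39 ± 0.15 (edgeR adjusted p = 0.0321) at 7 d, the latter with overlapping groups and lost under DESeq2 size factors. Psme2b was not called at 24 h (-0.20, edgeR adjusted p = 0.432) or 7 d (0.12, edgeR adjusted p = 0.582).

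Psmf1, lower at 6 h, was higher than ex vivo at 24 h, with 36.3, 37.8 and 36.6 CPM (log2 fold change 0.49 ± 0.14, edgeR adjusted p = 0.00613), and at 7 d, with 31.3, 41.4, 44.7, 31.6 and 28.8 CPM (log2 fold change 0.43 ± 0.12, edgeR adjusted p = 0.00485). The 24 h libraries did not overlap with the ex vivo range and those of 7 d did. The 7 d call of Psmf1 was lost in the TPM values. Psmg4 was the core chaperone with the largest rise, of 0.88 ± 0.32 (edgeR adjusted p = 0.0259) at 24 h and 1.72 ± 0.29 (edgeR adjusted p = 5.73e-05) at 7 d. At 24 h the call of Psmg4 was lost without 24 h replicate 2, without ex vivo replicate 4 and with a replicate block. Psmg3 was called at 7 d (log2 fold change 1.03 ± 0.32, edgeR adjusted p = 0.00896) with overlapping groups. Psmg1 and Psmg2 had log2 fold changes of 0.27 and -0.14 at 7 d (edgeR adjusted p = 0.278 and 0.506). Without 7 d replicates 2 and 3 the calls of Psma3, Psmc3ip, Psmd3, Psmf1 and Psmg3 were lost, 37 of the 46 genes were called and the median was 1.07. The 6 proliferation markers, which mark dividing cells, summed to 71.0, 293, 137, 105 and 34.0 TPM in the 7 d libraries and were highest in the same 2. The 4 markers of border macrophages summed to 35.9, 95.8, 88.2, 41.3 and 38.6 TPM in these libraries, and this sum was highest in the same 2 as well. By gene this held for Pf4 (6.1, 23.9, 25.6, 7.7 and 8.5 CPM) and for Cd163, at no more than 1.97 CPM. Mrc1 had 59.1, 83.6, 54.5, 59.3 and 46.5 CPM, replicate 3 lying below replicates 1 and 4, and Lyve1 reached at most 0.137 CPM. The part of either list in the result was not tested.

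Among the chaperones Psmd5 had 28.2, 34.4, 25.8, 23.4 and 25.2 CPM ex vivo, 103 and 100.5 CPM at 6 h, 58.3, 60.7 and 59.2 CPM at 24 h and 43.0, 39.2, 36.9, 43.9 and 40.5 CPM at 7 d. Psmd10 had 11.9, 10.9, 10.2, 7.81 and 7.78 CPM ex vivo, 19.4 and 18.7 CPM at 6 h, 31.7, 35.1 and 30.6 CPM at 24 h and 19.7, 35.2, 31.6, 24.4 and 20.4 CPM at 7 d. Psmd5, which holds back the ATPase ring until the base is built, was thus highest at 6 h, and Psmd10, known as gankyrin, at 24 h and 7 d. Psmg4 had 2.78, 2.44, 3.27, 1.79 and 2.17 CPM ex vivo, 2.44 and 3.27 CPM at 6 h, 4.44, 5.42 and 4.00 CPM at 24 h and 4.82, 13.0, 11.2, 7.80 and 4.40 CPM at 7 d. Psmc3ip had 1.21, 1.12, 0.565, 0.43 and 0.667 CPM ex vivo, 1.71, 2.39 and 2.79 CPM at 24 h (log2 fold change 1.51 ± 0.58, edgeR adjusted p = 0.0309) and 0.847, 5.01, 3.23, 1.54 and 0.598 CPM at 7 d (log2 fold change 1.48 ± 0.52, edgeR adjusted p = 0.0174). Its 24 h call was lost with a replicate block, without 24 h replicate 2 or 3 and without ex vivo replicate 3, 4 or 5. Its 7 d libraries spread widely and overlapped with the ex vivo range, and with TGFb it stood at 2.06 and 5.10 CPM.

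Compared directly with 6 h, 4 of the genes were higher at 24 h and 14 lower, where 22% and 19.8% of all genes were (41.8% either way). Those called lower included 5 of 8 lid genes, 4 of 6 ATPases, 2 of 3 other base genes, 1 of 3 catalytic genes, 1 of 8 alpha genes and no structural beta gene, and the difference between cap and core was not tested. With only these 2 groups in the fit 23 genes were lower, among them the core genes Psma5, Psma7, Psmb2, Psmb4 and Psmb6. Psmd1 fell from 493 and 422 CPM at 6 h to 189.8, 185 and 194 CPM at 24 h (log2 fold change -1.27 ± 0.12, edgeR adjusted p = 6.65e-07), and Psmd11 fell by 1.22 ± 0.16 (edgeR adjusted p = 2.12e-05) on the log2 scale. Psmd14 fell by 0.95 ± 0.17 (edgeR adjusted p = 0.000284), and Psmc1 fell by 0.93 ± 0.15 (edgeR adjusted p = 0.000134). Psmd12, a lid subunit, fell by 0.83 ± 0.19 (edgeR adjusted p = 0.00241). None of these 5 had overlapping groups. In the same interval Psmb5 had 0.13 (edgeR adjusted p = 0.753) and Psmb6 -0.48 (edgeR adjusted p = 0.167), and Psmb7 fell (log2 fold change -0.47 ± 0.16, edgeR adjusted p = 0.0276). With a replicate block Psmb6 was called lower too, as were Psma7 and Psmd6. Psme1 (-0.07), Psme2 (0.27), Psme4 (-0.18) and Psmg1 (0.57) were not called.

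Of the 4 genes that rose from 6 h to 24 h, 3 had fallen at 6 h and Psmd10 had risen. They were Psmf1 (log2 fold change 1.22 ± 0.18, edgeR adjusted p = 7e-05), Psmg2 (log2 fold change 1.29 ± 0.27, edgeR adjusted p = 0.00121), Psma8 (log2 fold change 1.10 ± 0.43, edgeR adjusted p = 0.0488) and Psmd10 (log2 fold change 0.77 ± 0.25, edgeR adjusted p = 0.0219). Psmf1 went from 14.6 and 17.1 CPM to 36.3, 37.8 and 36.6 CPM, without overlap. The call of Psma8 was lost under DESeq2 size factors, in the DESeq2 test, without a filter and without any 1 of the 5 libraries of 6 h and 24 h. Upper-quartile scaling moved the median of all genes in this comparison from 0.01 to 0.17 and limma on TPM to 0.26, and the share of higher calls was 63.7% and 74.6%, against 3045 of 5779 calls in the counts. In the TPM values 9 proteasome genes were higher and 5 lower; Psmd1, Psmd11, Psmd14, Psmc1 and Psmd5 remained lower and Psmf1, Psmg2, Psma8 and Psmd10 higher. The calls for Psmb7, Psmd12 and 7 other genes were lost there. In the counts 2 genes were higher and 8 lower without 6 h replicate 1, and 2 and 11 without 6 h replicate 2.

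From 24 h to 7 d 6 genes rose and 6 fell, where 27.2% and 21.6% of all genes did (48.8% either way). Those that fell were Psmd11, Psmd5, Psme3, Psme4, Psmd3 and Psmd7. Psmd11 fell from 104, 97.2 and 118 CPM to 50.6, 42.9, 42.4, 54.7 and 59.7 CPM (log2 fold change -1.09 ± 0.13, edgeR adjusted p = 4.34e-06), all 5 libraries of 7 d lying below the 3 of 24 h. Psmd5, the base chaperone, fell by 0.55 ± 0.11 (edgeR adjusted p = 0.000849), Psme3 fell by 0.52 ± 0.09 (edgeR adjusted p = 0.000173) and Psme4 fell by 0.49 ± 0.18 (edgeR adjusted p = 0.0295). Psmd3 fell by 0.41 ± 0.11 (edgeR adjusted p = 0.00456). The genes that rose were Psma1, Psma2, Psma8, Psmd8, Psmd9 and Psmg4. Psma2 rose by 0.51 ± 0.19 (edgeR adjusted p = 0.0347), Psmd9 by 0.61 ± 0.24 (edgeR adjusted p = 0.0489) and Psma1 by 0.36 ± 0.14 (edgeR adjusted p = 0.041). Psmd8 was called although its groups overlapped, with 158, 146 and 171 CPM at 24 h and 173, 276, 269.5, 186 and 170.2 CPM at 7 d (log2 fold change 0.44 ± 0.17, edgeR adjusted p = 0.0418). Of all 46 genes none was called higher when any 1 of the 24 h libraries, 7 d replicate 2 or 7 d replicate 3 was left out, nor in the TPM values, in which 12 genes were lower. Without 7 d replicate 5, 10 genes were called higher. The catalytic subunits were not called, at 0.00 (Psmb5), 0.14 (Psmb6) and 0.30 (Psmb7) on the log2 scale (edgeR adjusted p = 0.999, 0.633 and 0.0711). Psmd14 (-0.25), Psme1 (0.51), Psme2 (0.44), Psmf1 (-0.05) and Psmg1 (0.23) were not called either.

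Adding TGFb, a cytokine of the brain on which microglial identity depends, changed 1 of the 46 genes at 7 d, where 16.1% of all genes tested were called (9.57% higher and 6.52% lower). Psmd8 had 126 and 149 CPM with TGFb and 173, 276, 269.5, 186 and 170.2 CPM without it (log2 fold change -0.64 ± 0.20, edgeR adjusted p = 0.0366), and the groups did not overlap. This call was lost without 7 d replicate 2, without 7 d replicate 3 and without either library with TGFb. Psmb6 had 80.7 and 95.0 CPM with TGFb (log2 fold change -0.49 ± 0.26, edgeR adjusted p = 0.221), Psmb5 28.6 and 34.8 CPM (log2 fold change -0.20 ± 0.26, edgeR adjusted p = 0.681) and Psmd14 46.2 and 51.7 CPM (log2 fold change -0.27 ± 0.16, edgeR adjusted p = 0.282). The groups of these 3 genes overlapped. Psmf1 had 25.4 and 28.3 CPM (log2 fold change -0.41 ± 0.16, edgeR adjusted p = 0.107), below all 5 libraries without TGFb, and was called lower in the TPM values only. Psmb7, Psme1, Psme2, Psme4 and Psmg1 were not called, with log2 differences from -0.54 (Psmg1) to 0.01 (Psme4). The median over the 46 genes was -0.19 and that of all genes -0.04. At an unadjusted edgeR p under 0.05 there were 1 higher and 2 lower, and DESeq2 called 1 higher (Psmd1) and 1 lower.

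Against ex vivo microglia, whose libraries are again the shared reference, cells cultured 7 d with TGFb had 38 of the 46 genes higher and none lower, where 28.3% and 27.5% of all genes were (55.8% either way). The 5 largest rises among genes with at least 20 CPM were Psmb6 (log2 fold change 1.98 ± 0.24, edgeR adjusted p = 3.64e-06), Psmb5 (log2 fold change 1.97 ± 0.25, edgeR adjusted p = 6.22e-06), Psmb4 (log2 fold change 1.62 ± 0.21, edgeR adjusted p = 6.4e-06), Psmd1 (log2 fold change 1.60 ± 0.10, edgeR adjusted p = 2.22e-09) and Psma1 (log2 fold change 1.57 ± 0.15, edgeR adjusted p = 2.57e-07). Psmb7 (log2 fold change 1.28 ± 0.14, edgeR adjusted p = 1.53e-06), Psmd14 (log2 fold change 1.18 ± 0.15, edgeR adjusted p = 6.91e-06), Psme1 (log2 fold change 1.04 ± 0.25, edgeR adjusted p = 0.00196) and Psme2 (log2 fold change 1.19 ± 0.40, edgeR adjusted p = 0.018) were higher too. The call of Psme2 was lost without either library with TGFb and in the TPM values. The 8 genes not called were Psma3, Psma8, Psme2b, Psme4, Psmf1, Psmg1, Psmg2 and Psmg3, with log2 fold changes of -0.36 (Psmg2) to 0.71 (Psmg3). In TPM the median of all genes was -0.29 and that of the proteasome genes 0.81, and 32.8% of all calls were higher, against 3920 of 7721 in the counts; Psmg1 and Psmg2 were called lower there, whereas edgeR at an unadjusted p under 0.05 and DESeq2 had no lower gene.

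Freshly isolated microglia were compared with whole brain lysate. In microglia 4 of 8 alpha genes, 3 of 4 structural beta genes and all 3 catalytic genes tested were called lower. In the cap 4 of 6 ATPases, 3 of 3 other base genes and 5 of 8 lid genes were. Of the 46 genes 23 were lower in microglia and 7 higher, where 43.5% and 39.1% of 15335 genes tested were (82.7% either way). The share of the 46 called lower, 50%, was thus near that of all genes. The median log2 fold change, microglia minus lysate, was -0.42 over the 46 genes and -0.10 over all genes. The median absolute log2 fold change was 0.55 over the 46 genes and 1.66 over all genes. Of the 46, 10 were both called and changed by 2-fold or more, where 65.1% of all genes were. The lysate holds all cell types of the brain, with neuronal markers at 4148 to 5182 summed TPM and microglial markers at 175 to 236. The difference therefore compares microglia with a mixture, and which cell type carries the higher level was not tested.

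The catalytic subunits had the lowest median of the core, -1.01. Psmb5 had 10.3, 6.54, 15.5, 7.27 and 7.13 CPM in the 5 microglial libraries and 26.1, 24.8, 19.9 and 24.1 CPM in the 4 of lysate (log2 fold change -1.34 ± 0.25, edgeR adjusted p = 0.0003), and Psmb7 27.7, 25.4, 29.6, 25.6 and 24.3 CPM and 59.0, 54.9, 52.6 and 47.8 CPM (log2 fold change -1.01 ± 0.12, edgeR adjusted p = 5.3e-06). The groups did not overlap for either. Psmb6 was called with overlapping groups, ex vivo replicate 3 reaching the lysate range (log2 fold change -0.77 ± 0.20, edgeR adjusted p = 0.00342). The largest difference among the cap genes was that of the ATPase Psmc5, with 36.6, 28.2, 43.3, 31.4 and 29.0 CPM in microglia and 129, 132, 78.9 and 96.7 CPM in lysate (log2 fold change -1.70 ± 0.18, edgeR adjusted p = 3.11e-06). Psmc1 (log2 fold change -1.14 ± 0.15, edgeR adjusted p = 2.26e-05), Psmb4 (log2 fold change -0.99 ± 0.20, edgeR adjusted p = 0.000663) and Psmd14 (log2 fold change -0.97 ± 0.16, edgeR adjusted p = 0.000101) were lower as well. Without ex vivo replicate 3 the count of lower genes was 31.

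Psme1 and Psme2 of PA28 and Psme4 of PA200 went the other way. Psme1 had 45.2, 38.4, 58.8, 28.8 and 38.9 CPM in microglia and 11.6, 14.6, 14.9 and 9.80 CPM in lysate (log2 fold change 1.72 ± 0.22, edgeR adjusted p = 1.14e-05). Psme2 had 5.42, 5.01, 8.11, 3.26 and 5.17 CPM and 2.18, 2.16, 1.44 and 1.55 CPM (log2 fold change 1.54 ± 0.30, edgeR adjusted p = 0.000393). Psme4 had 135, 171, 104, 141 and 128 CPM and 59.2, 54.8, 53.4 and 58.6 CPM (log2 fold change 1.26 ± 0.14, edgeR adjusted p = 4.32e-06). In each of these the lowest microglial library lay above the highest of lysate, and so it did for Psme2b (log2 fold change 3.55 ± 0.16, edgeR adjusted p = 1.35e-09), whose reads may be shared with Psme2. Psme3, the nuclear PA28 gamma, was not called (-0.20, edgeR adjusted p = 0.0857). Psma8 had 3.01, 3.12, 3.40, 1.67 and 1.57 CPM in microglia and 0.0454, 0.0686, 0.227 and 0.282 CPM in lysate (log2 fold change 4.19 ± 0.53, edgeR adjusted p = 1.14e-05), and the groups did not overlap. Psmd11 was the lid gene that was higher in microglia (log2 fold change 0.45 ± 0.13, edgeR adjusted p = 0.00586), and Psmg2 was the core chaperone that was (log2 fold change 0.41 ± 0.15, edgeR adjusted p = 0.0239); both calls were lost under DESeq2 size factors, which moved the median of all genes from -0.10 to -0.38 and that of the proteasome genes to -0.70. Psmf1 was not called (-0.14, edgeR adjusted p = 0.321), nor was Psmg1 (0.16, edgeR adjusted p = 0.409).

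**Figure D3:**
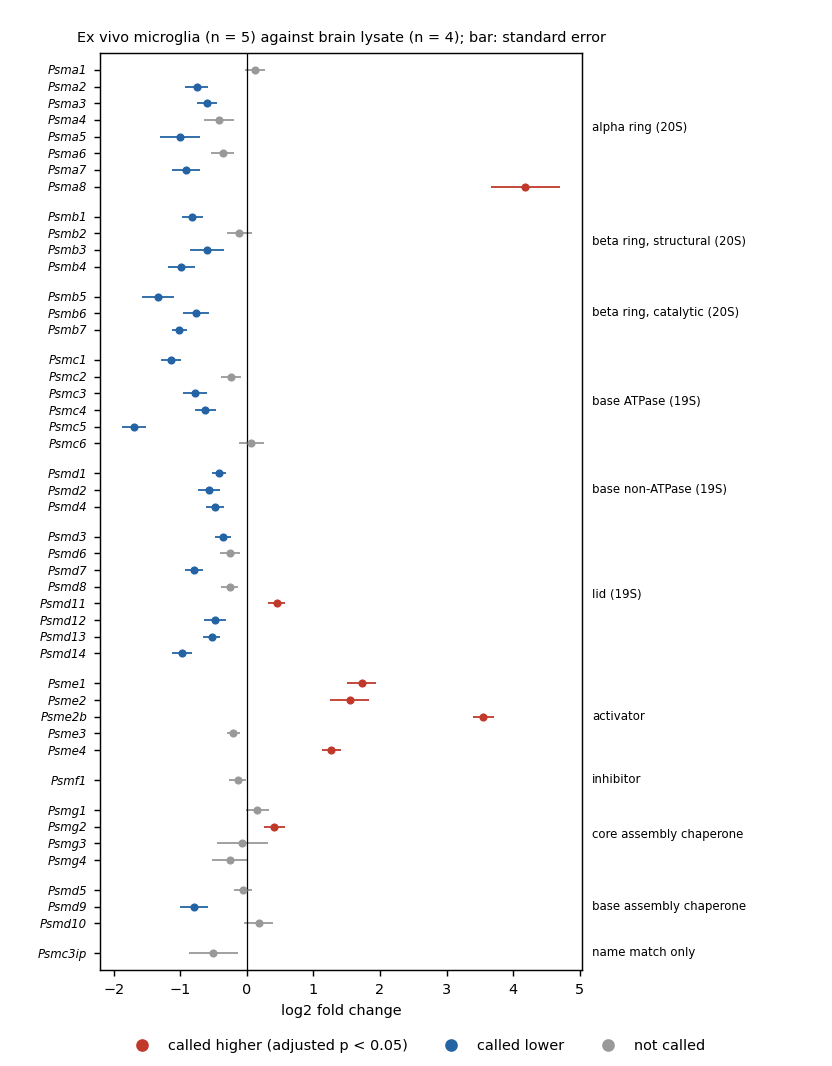
Log2 fold change of 46 proteasome genes in ex vivo microglia (n = 5) against whole brain lysate (n = 4), grouped by role; points are estimates and bars are standard errors. Most core and cap genes lie left of 0, with Psmc5 at -1.70, while Psma8 (4.19), Psme2b (3.55) and Psme1 (1.72) lie farthest to the right.

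Levels between genes were compared per length, in the TPM values the authors deposited, given as mean ± SD over libraries. Subunits that stand in equal number in the finished particle did not have equal levels of mRNA. Ex vivo the alpha genes ran from Psma1 at 68.1 ± 13.9 TPM down to Psma5 at 5.52 ± 1.96 and Psma8 at 2.52 ± 0.863, and the structural beta genes from Psmb4 at 72.0 ± 19.9 to Psmb3 at 16.0 ± 4.88. Among the catalytic genes Psmb7 (45.9 ± 3.92) and Psmb6 (41.6 ± 11.4) did not differ beyond their spread, and Psmb5 (17.9 ± 7.20) was lower. The ATPases lay closer together, between Psmc1 at 35.6 ± 5.77 and Psmc3 at 65.9 ± 13.7 TPM, and neighbours in their order did not differ beyond their spread.

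At 6 h the order changed. Psmb6 reached 226 ± 19.7 TPM, Psmd11 211 ± 12.9 TPM and Psmd1 209 ± 20.8 TPM, levels beside that of Psmb4 at 230.3 ± 3.96 TPM. Ex vivo these had been 41.6 ± 11.4, 30.0 ± 3.81 and 42.7 ± 2.07 TPM. Psmd14, at 27.2 ± 4.37 TPM the lowest of the lid genes ex vivo, reached 132 ± 16.3 TPM. The inhibitor Psmf1 went from 14.3 ± 0.733 TPM ex vivo to 6.60 ± 0.808 at 6 h and 19.6 ± 0.143 at 24 h. Psmg2, the most abundant core chaperone ex vivo at 22.3 ± 2.89 TPM, was at 5.76 ± 0.304 TPM at 6 h.

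**Figure D4:**
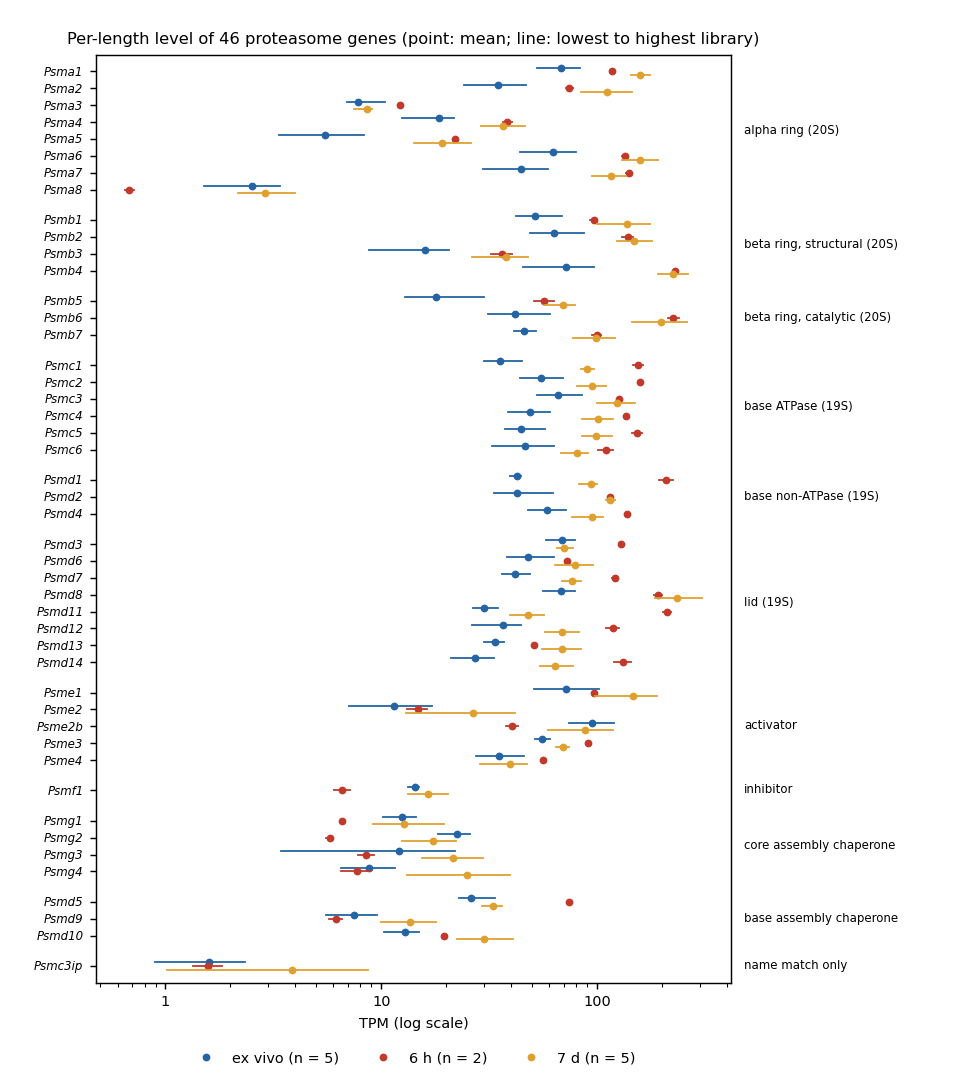
TPM on a log axis for the 46 tested genes in ex vivo (n = 5), 6 h (n = 2) and 7 d (n = 5) libraries; points are means and lines run from the lowest to the highest library. Psma8 and Psmc3ip lie low, and at 6 h Psmb4, Psmb6, Psmd1 and Psmd11 lie above 200 TPM.

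The genes of each assembly were also summed in TPM. The 16 core genes summed to 567, 524, 724, 444 and 501 TPM ex vivo, 1392 and 1458 at 6 h and 1413, 1505 and 1510 at 24 h. At 7 d they summed to 1274, 1843, 1773, 1483 and 1262 TPM. The 17 genes of base and lid summed to 790.0, 766, 926, 745 and 741 TPM ex vivo, 2408 and 2254 at 6 h, 1890, 1836 and 1992 at 24 h and 1458, 1836, 1686, 1587 and 1458 at 7 d. In TPM every core sum of 24 h lay within or above the range of 6 h, and every cap sum of 24 h and 7 d lay below it. In TMM-scaled CPM the core sums were 948 and 972 at 6 h and 742, 807 and 798 at 24 h, so on that scale those of 24 h lay below. The cap sums on that scale were 2941 and 2705 at 6 h and 1734, 1733 and 1838 at 24 h. The difference between the 2 assemblies was not tested. With TGFb the core summed to 1101 and 1362 TPM and the cap to 1202 and 1412 TPM, and in lysate to 1138, 1151, 998 and 892 and 1579, 1600, 1321 and 1226 TPM. The 5 activators ranged from 246.4 to 288 TPM ex vivo and from 127.2 to 145 in lysate.

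**Figure D5:**
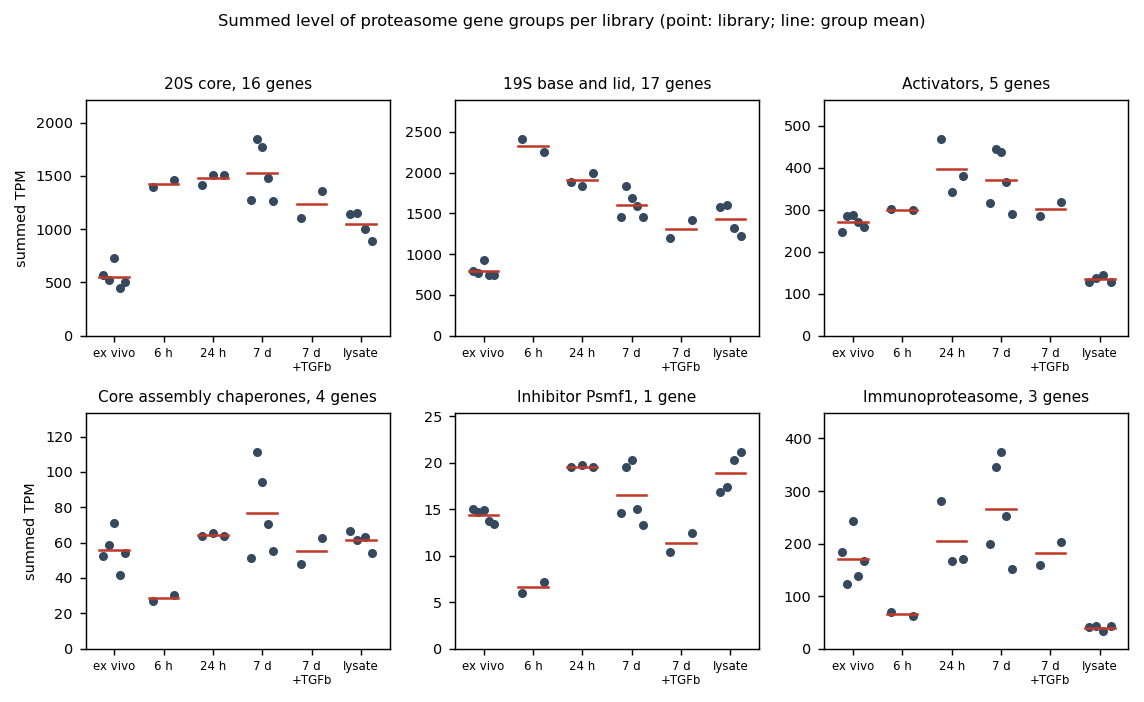
Summed TPM per library of the 20S core, the 19S base and lid, the activators, the core assembly chaperones, the inhibitor Psmf1 and the immunoproteasome genes in the 6 groups; points are libraries and lines are group means, and each axis starts at 0. Core and cap are lowest ex vivo, the cap peaks in the 2 libraries of 6 h, and the inhibitor, the core chaperones and the immunoproteasome genes are lowest at 6 h among the microglial groups.

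Genes that work with the proteasome but fall outside the name rule were examined as 4 lists. The 3 immunoproteasome genes encode the catalytic subunits that replace Psmb5, Psmb6 and Psmb7 in immune cells. At 6 h 2 of them fell. Psmb10 went from 42.9, 23.9, 53.1, 29.7 and 40.5 CPM ex vivo to 11.5 and 12.1 CPM (log2 fold change -1.69 ± 0.32, edgeR adjusted p = 0.000211) and Psmb9 from 22.6, 14.4, 26.1, 14.1 and 17.7 CPM to 3.13 and 1.44 CPM (log2 fold change -3.04 ± 0.66, edgeR adjusted p = 0.000717), while Psmb8 was not called (-0.09, edgeR adjusted p = 0.801). So at 6 h the standard catalytic genes and these 2 counterparts were called in opposite directions. At 24 h Psmb9 was still lower (log2 fold change -1.26 ± 0.49, edgeR adjusted p = 0.0339), and Psmb8 was higher (log2 fold change 0.67 ± 0.26, edgeR adjusted p = 0.037) with overlapping groups. At 7 d Psmb8 (log2 fold change 1.32 ± 0.23, edgeR adjusted p = 0.000104) and Psmb10 (log2 fold change 0.58 ± 0.22, edgeR adjusted p = 0.0258) were higher, the latter with overlapping groups. All 3 were higher in microglia than in lysate, by 4.84 (Psmb8), 5.24 (Psmb9) and 0.96 (Psmb10) on the log2 scale (edgeR adjusted p = 1.9e-08, 1.05e-08 and 0.0015).

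Of 8 further subunits, assembly and proteasome-bound factors, 6 rose and 1 fell at 6 h, 7 rose and 1 fell at 24 h and 6 rose and 1 fell at 7 d. The background shares were those given above for each comparison. AI314180, which encodes the adaptor Ecm29, rose at 6 h by 1.73 ± 0.15 (edgeR adjusted p = 3.46e-08), the ubiquitin receptor Adrm1 by 1.80 ± 0.16 (edgeR adjusted p = 4.78e-08) and the deubiquitinase Usp14 by 2.15 ± 0.20 (edgeR adjusted p = 7.23e-08). The gene that fell at 6 h (log2 fold change -0.47 ± 0.13, edgeR adjusted p = 0.00363), 24 h (log2 fold change -1.02 ± 0.11, edgeR adjusted p = 6.26e-07) and 7 d (log2 fold change -1.23 ± 0.10, edgeR adjusted p = 6.82e-09) was Akirin2, whose protein brings proteasomes into the nucleus. Pomp, the maturation factor of the core, was at 1.92 at 7 d (edgeR adjusted p = 4.5e-07) and Shfm1, a lid component, at 3.38 (edgeR adjusted p = 1.34e-06).

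Of 7 regulators of proteasome genes 6 rose at 6 h, 4 at 24 h and 2 at 7 d, and none fell. The background shares given above for each comparison apply to these counts too. Nfe2l1, the gene of NRF1, had 125, 109, 116, 119 and 127 CPM ex vivo, 361 and 364 CPM at 6 h (log2 fold change 1.60 ± 0.11, edgeR adjusted p = 1.7e-09), 354, 366 and 364 CPM at 24 h (log2 fold change 1.60 ± 0.10, edgeR adjusted p = 5.85e-10) and 342, 295, 297, 373 and 320.0 CPM at 7 d (log2 fold change 1.45 ± 0.09, edgeR adjusted p = 4.77e-10). The cultured libraries lay above the ex vivo ones at all 3 times. Mafg, a small Maf partner, rose at 6 h from 90.2, 83.6, 84.8, 81.2 and 76.3 CPM to 298 and 323 CPM (log2 fold change 1.90 ± 0.13, edgeR adjusted p = 1.28e-09), and Nfe2l2, the gene of NRF2, by 1.23 ± 0.17 (edgeR adjusted p = 7.59e-06). Ngly1, a deglycosylase that acts on NRF1, was not called at 6 h (0.32, edgeR adjusted p = 0.0553). At 24 h Nfe2l2 (0.23) and Ddi2 (0.03), a protease of NRF1, were not called (edgeR adjusted p = 0.205 and 0.912). The mRNA level of these regulators does not give the activity of their proteins, which was not measured.

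Of 13 genes for ubiquitin, its activation and its delivery 9 rose at each of 6 h, 24 h and 7 d. None fell at 6 h, and 1 fell at 24 h and at 7 d. From 6 h to 24 h 8 fell and none rose. Of all genes tested 31.2%, 29.6% and 34.8% were higher at 6 h, 24 h and 7 d, and 19.8% were lower from 6 h to 24 h. Vcp, the unfoldase that extracts substrates, went from 39.0, 29.9, 38.6, 41.6 and 32.4 CPM ex vivo to 222 and 225 CPM at 6 h (log2 fold change 2.62 ± 0.11, edgeR adjusted p = 6.91e-12) and 94.1, 99.1 and 102 CPM at 24 h (log2 fold change 1.44 ± 0.10, edgeR adjusted p = 3.7e-09). Uba1, the main ubiquitin-activating enzyme, rose at 6 h by 2.12 ± 0.13 (edgeR adjusted p = 3.97e-10) and the shuttle Rad23b by 1.76 ± 0.12 (edgeR adjusted p = 9.59e-10). Ubb, which encodes polyubiquitin, was not called at 6 h (0.61, edgeR adjusted p = 0.0752). With TGFb against 7 d without it, the regulators Ddi2 (log2 fold change 0.65 ± 0.21, edgeR adjusted p = 0.0453) and Ngly1 (log2 fold change -0.65 ± 0.15, edgeR adjusted p = 0.00574) were called in opposite directions, and none of the other 3 lists had a call.

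RefSeq start sites of GRCm38.p6 were available for 39 of the 47 genes. Within 1000 bp of the start 37 of the 39 (94.87%, Wilson 95% interval 83.11% to 98.58%) had a peak in each of the ATAC and H3K27ac lists, ex vivo and at 7 d, and in the ex vivo H3K4me2 list. Among 10457 expressed genes with a start the shares were 87.93% and 88.54% for ATAC, 80.13% and 76.55% for H3K27ac and 91.36% for H3K4me2. The genes without a peak were Psmb11 and Psme2b in every list. PU.1, a factor that binds enhancers and promoters of macrophages, had a peak at 33 of 39 (84.62%, 70.27% to 92.75%) against 72.31% of expressed genes, with Psma7, Psmc3ip, Psmd1 and Psmd4 also lacking one. So the same 37 starts carried ATAC and H3K27ac peaks ex vivo and at 7 d, where most of the genes had higher mRNA levels. The lists hold no height, so a change in the amount of signal at these peaks was not tested.

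The motif TGACNNNGC was searched on both strands from 250 bases before to 50 after each start, and a gene counted if any start matched. It was found for 6 of 39 genes (15.38%), against 17.08% of expressed genes and 13.99% of all 27025 genes with a start. They were Psmb5, Psmb6, Psmc6, Psmd9, Psmd12 and Psme4. The stretches of 3 of them are shown beside those of Psmb5 and Psmb6 above to show where the motif lies and on which strand, with the motif in capitals.
Psmc6, chr14:45329574-45329630, plus strand: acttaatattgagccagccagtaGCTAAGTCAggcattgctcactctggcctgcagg
Psmd12, chr11:107479278-107479314, plus strand: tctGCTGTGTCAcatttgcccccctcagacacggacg
Psmd9, chr5:123228134-123228189, plus strand: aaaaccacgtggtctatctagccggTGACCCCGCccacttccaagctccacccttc
In Psmc6 and Psmd12 the motif reads on the strand opposite to the gene and lies farther from the start, 227 and 247 bases before it, than in Psmb5, Psmb6 and Psmd9. In Psme4 it also reads on the opposite strand, beginning 7 bases before the start.

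At 6 h the 6 genes with this motif had log2 fold changes of 2.82 (Psmb6), 2.08 (Psmd12), 2.04 (Psmb5), 1.63 (Psmc6), 1.06 (Psme4) and 0.09 (Psmd9), and those without it included Psmd11, Psmd1, Psmd14 and Psmc1, the genes that rose most beside Psmb6. The CCAAT box, which NF-Y binds, was found for 14 of 39 genes (35.9%), against 42.85% of expressed genes and 41.06% of all genes with a start. Psmd14 and Psmc1 were among the 14, and Psmd11, Psmb5 and Psmb6 were not. Neither share was above that of expressed genes. A match of letters is not a bound site.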

How the data were processed

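Poly(A) RNA of 21 mouse libraries and pooled chromatin peak lists were analysed. Read counts per gene symbol were used as the authors deposited them. The TPM values come from a deposited table that the authors call trimmed, without saying of what in the sources used here. The other deposited files used are peak intervals (start and end positions) that HOMER called on pooled samples, per the file headers. Per the submitters' processing notes STAR, Bowtie2, HOMER, bedtools, limma, R 3.3.1 and mm10 were used, without their roles.

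Counts were tested with edgeR 4.0.16 in R 4.3.3 (TMM, filterByExpr, quasi-likelihood F test, robust). The microglial model held 17 libraries and the lysate model 9, p-values were adjusted by Benjamini-Hochberg over 13840 and 15335 genes, and calls were made under 0.05. Library totals ran from 11584561 to 28841472 counts. TPM was tested with limma 3.58.1 on log2(TPM + 1), whose fold changes understate those of low genes. DESeq2 1.42.0, other scalings, no filter, left-out libraries and a replicate block were the alternatives. The steps were tested on simulated data with few changed genes, as many up as down. Scaling under changes as broad as those seen here was not tested that way. No replicates agreed within sampling noise.

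Members and lists were chosen with earlier results of these data known. Named in every comparison were the catalytic genes, Psmd14, Psme1, Psme2, Psme4, Psmf1 and Psmg1. Up to 5 of the largest calls each way at 20 CPM or more and calls against most calls of their role were added. Of each related list up to 3 called genes and up to 2 genes not called were taken. A result for 1 related gene is not reported here. Peaks counted at 1 bp or more within 1000 bp of a RefSeq start (GRCm38.p6). The 7 d ATAC replicate 2 is labelled 8 d. Endothelial, astrocyte, oligodendrocyte, monocyte and border macrophage markers were also summed: in ex vivo microglia they reached 6.66, 26.1, 119.5, 47.4 and 40.5 TPM at most.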

Additional observations from a re-analysis of the deposited data

Results flagged for a closer look

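In 3 of 231 combinations of a gene and a group of 4 or 5 libraries, 1 library lay far from the others by Dixon's test, all among the 4 brain lysate libraries and none in a gene that meets the name rule. Chance flags about 1 in 20 groups. For the immunoproteasome gene Psmb10 lysate replicate 3 was lowest at 18 CPM, the others lying at 23.7 to 24.9 CPM. For the ubiquitin fusion gene Rps27a replicate 2 was highest at 0.823 CPM, the others lying at 0.409 to 0.453 CPM. For Uba6, an alternative ubiquitin-activating enzyme, replicate 1 was highest at 26.4 CPM, the others lying at 18.1 to 18.8 CPM.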

How the results depend on the processing

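The median log2 fold change of the proteasome genes kept its sign under every alternative run at 6 h (1.10 to 1.58), 24 h (1.09 to 1.32) and 7 d (1.01 to 1.34) against ex vivo, with TGFb against ex vivo (0.81 to 1.28) and against lysate (-0.70 to -0.36). It crossed 0 for 24 h against 6 h (-0.42 to 0.03), 7 d against 24 h (-0.13 to 0.18) and TGFb against 7 d (-0.30 to 0.03). The cause of the changes below was not tested.

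For 24 h against 6 h, 9 genes were lower under upper-quartile scaling, 11 were higher and 23 lower with only these groups in the fit, and 9 were higher and 5 lower with limma on TPM at either pseudocount (8 and 5 without a filter). For 7 d against 24 h the genes called higher were 3 under DESeq2 size factors, 0 under upper-quartile scaling, 1 without a filter, 3 with only these groups, 0 without 7 d replicates 2 and 3 and 0 in TPM, where 12, 12 and 11 were lower. For TGFb against 7 d, 1 was higher in DESeq2 and 1 without 7 d replicates 2 and 3, and 0 were lower without those libraries or with only these groups, and 2 in TPM. For TGFb against ex vivo 2, 2 and 1 were lower in TPM. Nfe2l1, at -0.00 for 24 h against 6 h in the counts, had 0.33 in TPM (limma adjusted p = 0.0356, 0.0351 and 0.0373).

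Leaving out 1 library at a time gave 36 to 37 higher and 3 to 4 lower at 6 h, 37 to 40 and 0 at 24 h, 39 to 42 and 0 at 7 d, 2 to 3 and 8 to 11 for 24 h against 6 h (8 without 6 h replicate 1), 0 to 10 and 5 to 6 for 7 d against 24 h (10 without 7 d replicate 5), 0 and 0 to 1 for TGFb against 7 d, 31 to 39 and 0 for TGFb against ex vivo, and 5 to 7 and 22 to 31 against lysate.

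Correlations between the deviations of same-numbered libraries ran from -0.221 to 0.477. With 2 pairs each they were 0.399 and 0.395 for 24 h against 6 h and 0.199 and 0.477 for TGFb against 7 d. No label says that a number marks a shared source, so the numbers were not taken to pair the samples. With a replicate block 10 genes were higher from 24 h to 7 d and 2 were lower with TGFb, and in the other comparisons the counts stayed within 1.5 times. Of 1752 values of named proteasome genes under the alternatives none reversed, 109 lost and 30 gained a call. The 200 bp window left PU.1 peaks at 30 of 39 starts, and requiring 50% of a peak inside the window left H3K4me2 at 35 and 7 d H3K27ac at 36. At 2 libraries for 6 h and for TGFb, and at a few CPM for Psma8, Psmc3ip and Psmg4, the spread and the depth limit what can be called.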
